A study of Homo sapiens with 8 samples.

Results

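Heat shock proteins and chaperones were followed here through 10 genes in L1236, a Hodgkin lymphoma cell line in which the microRNA miR-155 is abundant. The genes were HSPA1A, HSPA8, HSPA5, HSPA4, HSPH1, HSP90AA1, HSP90AB1, DNAJB1, HSPD1 and HSPE1, and every probe whose RefSeq transcript belongs to one of them was taken. This gave 23 probes, of which 22 passed the filters. The 10 genes are 10 of the 11204 named genes with a kept probe on the 44k Agilent array.

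L1236 cells were transduced with the empty retroviral pMSCV-PIG vector (EV) or with a retrovirally expressed miR-155 sponge, an RNA with repeated miR-155 binding sites, and GFP+ cells were sorted in both cases. Total RNA (T) and RNA recovered with an Ago2 antibody (IP) were analysed in both of the 2 populations, so the groups were EV T, EV IP, sponge T and sponge IP. Each group held 1 RNA sample, which was labelled once with Cy3 and once with Cy5. IP and T of one population shared an array, with the dyes swapped on a second array, and all 4 arrays lay on 1 slide. Ago2 is the protein that holds a microRNA and its target transcripts, and IP/T, the IP signal over the T signal, measures how strongly a transcript is represented in the Ago2 fraction. The arrays of 1 antibody precipitation per population cannot separate binding to Ago2 from binding to beads, and an IgG control was not analysed here.

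Because each group had n = 1, no difference was tested and no p-value is given. The errors are SDs over the 2 dye orientations (IP/T) or the 2 dyes (a change in T or in IP), and they do not cover how cultures or precipitations vary. All values are log2 of quantile-normalised signals, and a log2 IP/T of 1 is a 2-fold enrichment. Fewer expressing cells and less RNA per cell cannot be told apart in these bulk samples.

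Chaperones bind proteins that are not folded and keep them from aggregating. HSP70 proteins hold short hydrophobic stretches of a client in a cycle driven by ATP, J-domain proteins such as DNAJB1 start that cycle, and nucleotide exchange factors, to which the HSP110 proteins HSPA4 and HSPH1 belong, end it. HSP90 takes over clients that are close to their native state, among them kinases and steroid receptors, and the ring of HSPD1 (HSP60) with its lid HSPE1 (HSP10) folds proteins inside mitochondria. Heat shock factor 1 switches on many of these genes under stress by binding heat shock elements, which are inverted repeats of GAA, and tumour cells often hold high levels of several of them.

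The microRNA that the sponge sequesters is printed for reference, with the seed (bases 2 to 8) in capitals. The mature sequence is from RefSeq (GRCh38.p14) and lies at chr21:25573983-25574006 on the plus strand. The transcripts of the chaperone genes were not searched for sites of this seed.
hsa-miR-155-5p: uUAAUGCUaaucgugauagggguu

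The labelled cell type was checked on marker genes in the 4 T channels. All 6 Hodgkin genes (TNFRSF8, CD40, IRF4, TRAF1, CCL17 and MIR155HG) were well above background in every T channel, and so were the B-cell genes CD79A and CD79B, while MS4A1 was in none. Among genes of other cells, CD3E and CD14 were also well above background in all 4 T channels, LYZ was in none and COL1A1 had no named probe. Between 54.1% (sponge T with Cy5) and 65.7% (sponge IP with Cy5) of the spots of a channel were well above background. No kept chaperone probe was saturated. All 22 kept chaperone probes were well above background in all 8 channels. The exception was the third HSPA1A probe, A_23_P111132, which was well above background in 0 of 8 channels, with processed signals from 8.45 to 12.53, and was left out.

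Some probes cannot be assigned to 1 gene with certainty. HSPA1A has the neighbouring near-identical copy HSPA1B, and 0 probes of the array carry that name, so the HSPA1A values may hold both transcripts. HSPA8, HSP90AA1, HSP90AB1, HSPD1, HSPE1 and HSPA5 have processed pseudogenes or close relatives whose transcripts the probes could share, and whether they do was not tested.

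**Figure D1:**
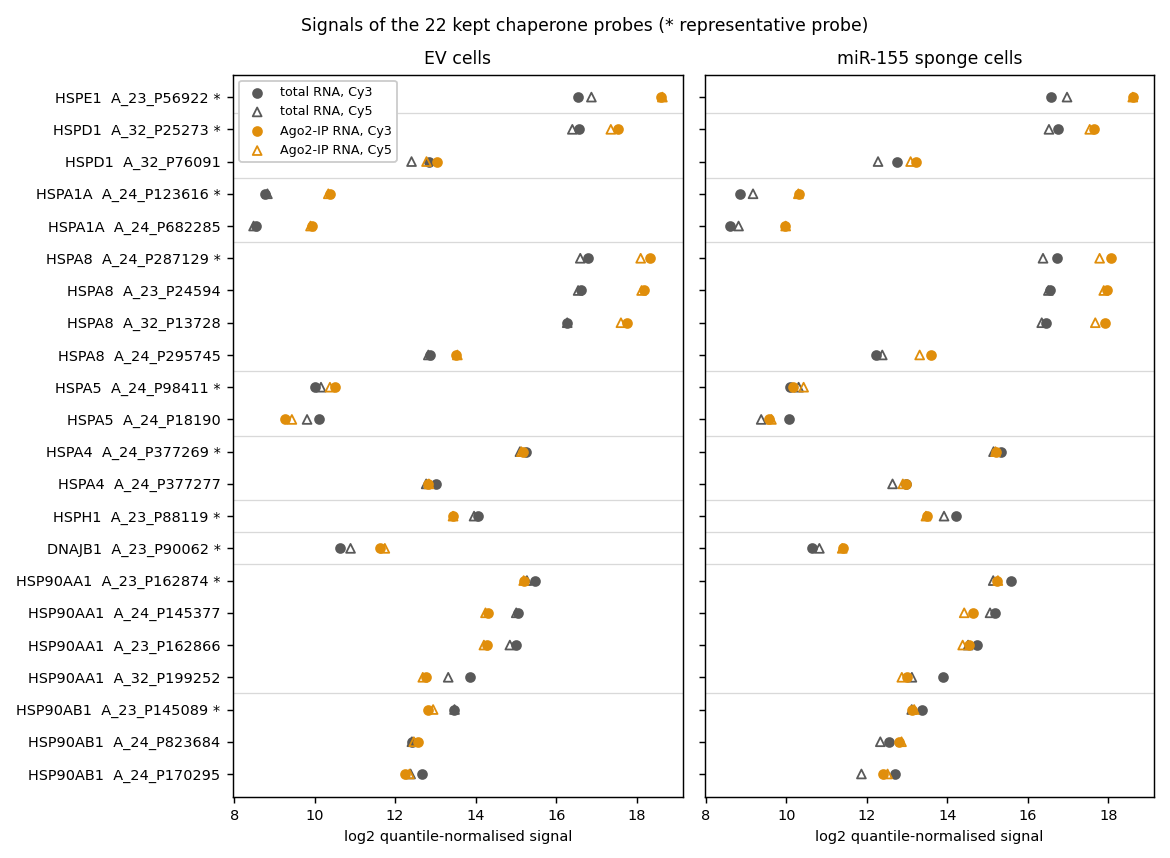
Log2 quantile-normalised signal of each of the 22 kept chaperone probes (rows) in EV cells (left) and miR-155 sponge cells (right); grey symbols are total RNA, orange symbols Ago2-IP RNA, filled circles Cy3 and open triangles Cy5, and an asterisk marks the probe that stands for a gene. In both panels the orange symbols of HSPE1, HSPA1A and HSPA8 lie to the right of the grey ones and those of HSPH1 to the left; levels of different probes are not comparable.

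In EV cells the chaperone genes differed in how strongly they were represented in the Ago2 fraction. The co-chaperonin HSPE1 and the cytosolic HSP70s HSPA1A and HSPA8 had IP/T ratios from 2.87- to 3.77-fold on the probes of highest signal. HSPD1 and DNAJB1 lay just under 2-fold. On those probes the HSP110 protein HSPH1 and both HSP90 genes lay below 1, as did the median of all kept probes. At a threshold of 2-fold, 6 of the 22 probes were enriched, all from HSPA1A, HSPA8 and HSPE1, where 17.5% of all 22472 kept probes and 15.8% of the 19892 kept probes detected in all 8 channels were. Both HSPA1A probes fell below the threshold with normexp background correction, which left 4 probes, of HSPA8 and HSPE1, with normexp, loess and Aquantile (8.76% of all kept probes) and with normexp and quantile normalisation (7.46%). None of the 22 probes was 2-fold or more lower in IP, where 19.0% of all kept probes were. The median log2 IP/T of the 22 probes was 0.19, with 12 above 0 and 10 below, beside a median of -0.16 over all kept probes. With 1 probe per gene, the one of highest mean signal, the median of the 10 genes was 0.65, and 0.58 and 0.55 in the single orientations, with 6 genes above 0 and 4 below. That median depended on the choice of probe and on the processing. It was 0.45, with 5 genes above 0 and 5 below, with the other probe of HSPA5, 0.29 with the mean over the probes of a gene and 0.41 with normexp and quantile normalisation.

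HSPE1, the mitochondrial co-chaperonin, had the highest ratio. Its single probe read 16.53 (Cy3) and 16.87 (Cy5) in EV T and 18.60 and 18.64 in EV IP, and in sponge cells 16.57 and 16.97 in T and 18.61 and 18.61 in IP. All 4 IP channels lay above all 4 T channels. The log2 IP/T was 1.91 ± 0.27 with EV (3.77-fold, percentile 93.5 of all kept probes) and 1.84 ± 0.28 with the sponge (3.57-fold, percentile 93.1).

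HSPD1, the chaperonin that HSPE1 closes, had 2 probes with unequal ratios. Probe A_32_P25273 read 16.57 and 16.40 in EV T, 17.52 and 17.36 in EV IP, 16.75 and 16.53 in sponge T and 17.63 and 17.54 in sponge IP. The IP channels were again all above the T channels, with a log2 IP/T of 0.96 ± 0.24 with EV and 0.95 ± 0.23 with the sponge. The second probe, A_32_P76091, gave 0.29 ± 0.48 in EV cells, with one orientation at -0.05 and the other at 0.63, and 0.64 ± 0.43 in sponge cells. The ratio of HSPD1 was therefore below that of HSPE1 on both probes and in both orientations of each population.

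HSPA1A, the stress-inducible cytosolic HSP70, was represented by A_24_P123616, which read 8.76 and 8.83 in EV T and 10.37 and 10.34 in EV IP. In sponge cells the same probe read 8.86 and 9.17 in T and 10.32 and 10.30 in IP. The IP values of both populations lay close together and the T values were higher in sponge cells. The log2 IP/T was 1.56 ± 0.02 with EV (2.96-fold) and 1.29 ± 0.21 with the sponge (2.45-fold), and the second probe, A_24_P682285, gave 1.40 ± 0.06 and 1.27 ± 0.17. The size of the HSPA1A enrichment moved with the processing. With normexp, loess and Aquantile the log2 IP/T came to 0.98 (EV) and 0.63 (sponge), and to 0.85 and 0.70 with normexp and quantile normalisation, the 2 of 14 alternatives under 2-fold.

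HSPA8, the constitutive HSP70 (HSC70) that is abundant in unstressed cells, had 3 probes annotated to 1 transcript with nearly the same ratio. The probe of highest signal, A_24_P287129, read 16.79 and 16.60 in EV T, 18.33 and 18.10 in EV IP, 16.71 and 16.38 in sponge T and 18.06 and 17.78 in sponge IP. Its log2 IP/T was 1.52 ± 0.30 with EV and 1.37 ± 0.43 with the sponge. A_23_P24594 gave 1.58 ± 0.09 and 1.39 ± 0.09, and A_32_P13728 gave 1.41 ± 0.11 and 1.40 ± 0.25. HSPA8 stayed at 2-fold or more in all 14 processing alternatives in both populations, as did HSPE1. Of these, the other detection and dye filters gave the reported values again. HSPE1 has a single probe, so the other probe choices could not change its value either.

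The fourth HSPA8 probe, A_24_P295745, is annotated to another RefSeq transcript of the gene and stood apart. It read 12.85 and 12.82 in EV T, 13.51 and 13.54 in EV IP, 12.23 and 12.38 in sponge T and 13.59 and 13.31 in sponge IP. Its T signal was the value that differed between the populations, lower in sponge cells with both dyes, while its IP signals overlapped. The log2 IP/T was 0.69 ± 0.00 with EV (1.61-fold) and 1.15 ± 0.09 with the sponge (2.21-fold), so this probe crossed the 2-fold threshold and brought the count of enriched probes in sponge cells to 7. It lay below the threshold in sponge cells with Cy5 labels only (0.93) and with normexp and quantile normalisation (0.99). With the latter the count was 4, against 6.97% of all kept probes. With normexp, loess and Aquantile it was 5, against 6.91%. Both HSPA1A probes were under 2-fold in sponge cells with either normexp setting.

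HSPA5 (BiP), the HSP70 of the endoplasmic reticulum, gave opposite signs on its 2 probes. A_24_P98411 read 10.00 and 10.16 in EV T, 10.52 and 10.38 in EV IP, 10.09 and 10.31 in sponge T and 10.17 and 10.43 in sponge IP, a ratio of 0.37 ± 0.01 with EV and 0.10 ± 0.34 with the sponge. A_24_P18190 read 10.11 and 9.81 in EV T and 9.27 and 9.43 in EV IP, a log2 IP/T of -0.61 ± 0.10, and -0.12 ± 0.46 in sponge cells. The probes were 0.98 apart on the log2 scale in EV cells, the widest gap between probes of 1 chaperone gene, so no direction is given for HSPA5.

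The HSP110 proteins HSPA4 and HSPH1, which release ADP from HSP70, were not enriched. HSPA4 probe A_24_P377269 read between 15.10 and 15.32 in all 8 channels, with a log2 IP/T of -0.02 ± 0.13 with EV and -0.03 ± 0.13 with the sponge, and A_24_P377277 gave -0.06 ± 0.15 and 0.13 ± 0.28. HSPH1 read 14.07 and 13.96 in EV T, 13.45 and 13.44 in EV IP, 14.22 and 13.92 in sponge T and 13.50 and 13.47 in sponge IP. Every IP channel of HSPH1 lay below every T channel. Its log2 IP/T was -0.57 ± 0.09 with EV (percentile 34.3 of all kept probes) and -0.59 ± 0.24 with the sponge.

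DNAJB1 (HSP40), the J-domain partner of the cytosolic HSP70s, read 10.62 and 10.89 in EV T, 11.63 and 11.74 in EV IP, 10.64 and 10.82 in sponge T and 11.40 and 11.39 in sponge IP. The IP channels lay above the T channels in both populations. The log2 IP/T was 0.93 ± 0.27 with EV (1.90-fold) and 0.67 ± 0.12 with the sponge (1.59-fold).

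The cytosolic HSP90s lay toward the other end of the 10 genes. On the probes of highest signal in EV cells, HSP90AA1 was at percentile 49.7 of all kept probes and HSP90AB1 at 33.9. HSP90AA1, the stress-inducible form, had 4 probes, and its probe of highest signal, A_23_P162874, was spotted 10 times on each array. The SD over spots was 0.29 in sponge T with Cy5 and 0.28 in sponge IP with Cy3, which shared 1 array. In the other channels it was 0.06 to 0.10. That probe read 15.46 and 15.27 in EV T, 15.21 and 15.19 in EV IP, 15.57 and 15.14 in sponge T and 15.25 and 15.26 in sponge IP. Its log2 IP/T was -0.17 ± 0.15 with EV and -0.11 ± 0.30 with the sponge. The other 3 HSP90AA1 probes were lower in EV cells, at -0.68 ± 0.15, -0.75 ± 0.08 and -0.87 ± 0.44. HSP90AB1, the constitutive form, read 13.45 and 13.47 in EV T, 12.82 and 12.94 in EV IP, 13.38 and 13.12 in sponge T and 13.13 and 13.18 in sponge IP on A_23_P145089. Here the EV IP channels stood lowest, and the log2 IP/T was -0.58 ± 0.10 with EV and -0.10 ± 0.15 with the sponge. The remaining HSP90AB1 probes gave -0.23 ± 0.12 (A_24_P170295) and 0.10 ± 0.09 (A_24_P823684) in EV cells, so 6 of the 7 HSP90 probes were below 0 in both orientations and 1 was above, where 49.97% of all kept probes were not above 0 in both.

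Ordered by log2 IP/T in EV cells on the probes of highest signal, and without HSPA5, the genes ran from HSPE1 over HSPA1A, HSPA8, HSPD1, DNAJB1, HSPA4, HSP90AA1 and HSPH1 to HSP90AB1. The last places depended on the probe: 3 of the 4 HSP90AA1 probes lay below HSPH1, and 2 of the 3 HSP90AB1 probes lay above it. The ranges of the orientations overlapped between HSPA1A and HSPA8, between HSPD1 and DNAJB1, between HSPA4 and HSP90AA1 and between HSPH1 and HSP90AB1, and these neighbours cannot be ranked. In sponge cells HSPE1 was again highest and HSPH1 lowest, and the ranges of HSPE1, HSPA8 and HSPA1A overlapped in turn, as did those of HSPA4, HSP90AB1 and HSP90AA1. In sponge cells 7 of the 22 probes were enriched 2-fold or more, against 17.5% of all kept probes and 15.6% of those detected in all 8 channels, and none was 2-fold or more lower, against 17.8%. The median log2 IP/T of the 10 genes in sponge cells was 0.38 ± 0.14, and that of the 22 probes was 0.28, beside -0.13 over all kept probes.

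**Figure D2:**
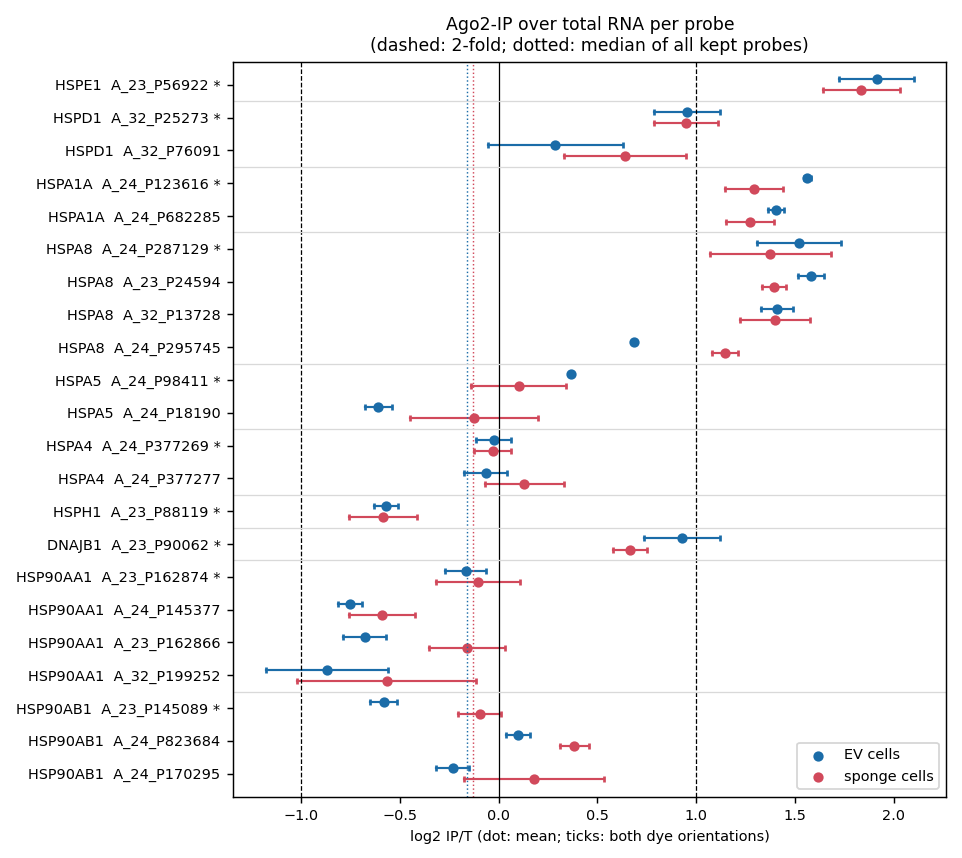
Log2 IP/T of the 22 kept chaperone probes in EV cells (blue) and sponge cells (red); dots are means, the ticks at the ends of each line are the 2 dye orientations, dashed lines mark 2-fold and dotted lines the medians of all kept probes, -0.16 and -0.13. HSPE1, HSPA1A and 3 HSPA8 probes lie beyond the 2-fold line in both populations, while the HSP90 probes and HSPH1 lie between -0.87 and 0.38.

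The next comparison asked whether chaperone transcripts differed between sponge and EV cells in total RNA. No difference was large: 0 of the 22 probes differed by 2-fold or more, against 0.409% of all kept probes. By more than the SD over the dyes, 8 probes were higher in sponge cells, against 23.5% of all kept probes, and 7 were lower, against 27.1%. Shares by SD, here and below, include kept probes not detected in all 8 channels, whereas all 22 chaperone probes were detected in all 8. The median change of the 10 genes was 0.06 ± 0.05, with 6 genes above 0 and 4 below, beside a median of -0.02 over all kept probes. The range over genes went from -0.22 ± 0.20 for HSP90AB1 to 0.23 ± 0.17 for HSPA1A, whose second probe gave 0.20 ± 0.19. HSPD1 was 0.15 ± 0.04 on its probe of highest signal and -0.10 ± 0.03 on the other. The largest value, -0.53 ± 0.13 (percentile 2.05 of all kept probes), was on A_24_P295745, the HSPA8 probe annotated to another transcript. The other HSPA8 probes gave -0.15 ± 0.10, 0.12 ± 0.07 and -0.04 ± 0.01. HSP90AA1 probe A_23_P162866 was at -0.29 ± 0.05, while its other probes lay between -0.08 and 0.09.

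In the Ago2-IP fraction, 0 of the 22 probes differed by 2-fold or more between sponge and EV cells, against 0.151% of all kept probes. By more than the SD over the dyes, 15 were higher in sponge cells, against 33.3% of all kept probes, and 4 were lower, against 31.3%. The HSP90 genes made up 7 of the 15. All 7 of their probes were higher in sponge IP than in EV IP with both dyes, by 0.05 to 0.31, where 37.8% of all kept probes were higher with both. For 1 of them, HSP90AA1 probe A_23_P162874, the value of 0.05 ± 0.02 became 0.01 with normexp and quantile normalisation and -0.02 with normexp, loess and Aquantile. HSP90AB1 gave 0.27 ± 0.05, 0.31 ± 0.13 and 0.16 ± 0.00 on its 3 probes. The 4 lower values came from DNAJB1 (-0.29 ± 0.09), HSPA8 (-0.29 ± 0.03 on A_24_P287129 and -0.23 ± 0.01 on A_23_P24594) and HSPA1A (-0.04 ± 0.01). HSPA8 probe A_32_P13728 had the other sign, 0.11 ± 0.07, so the HSPA8 probes did not share a direction. The second HSPA1A probe, A_24_P682285, also had the other sign, 0.06 ± 0.03, but gave -0.12 with normexp, loess and Aquantile. With 1 probe per gene, 5 of the 10 genes were above 0 and 5 below. Their median was 0.02 ± 0.01, beside 0.01 over all kept probes.

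The change in IP/T, which the study used to look for transcripts released from Ago2 by the sponge, was below 2-fold for every chaperone probe: 0 of 22 passed, against 0.311% of all kept probes. By more than the SD over orientations, 10 were higher in sponge cells, against 29.6% of all kept probes, and 6 were lower, against 23.5%. The HSP90 probes were all above 0, from 0.06 to 0.52, and 6 of the 7 were so in both orientations, against 35.1% of all kept probes. The exception was A_23_P162874, which was also at -0.02 with normexp, loess and Aquantile. HSP90AA1 gave 0.52 ± 0.12 on A_23_P162866 (percentile 97.4), and HSP90AB1 gave 0.48 ± 0.25 on A_23_P145089. All HSP90 probes were higher with IP in Cy3, the orientation that holds the sponge array of wide spot spread. There A_23_P145089 gave 0.66, against 0.31 with IP in Cy5, and A_24_P170295 gave 0.68, against 0.14. A_24_P823684 hardly differed, with 0.30 against 0.27. On the probes of highest signal, the change was -0.27 ± 0.18 for HSPA1A, -0.26 ± 0.15 for DNAJB1, -0.15 ± 0.13 for HSPA8, -0.08 ± 0.01 for HSPE1 and -0.01 ± 0.01 for HSPD1. Some other probes of these genes had the other sign: HSPA8 probe A_24_P295745 gave 0.46 ± 0.09 and HSPD1 probe A_32_P76091 gave 0.35 ± 0.05. The remaining HSPA8 probes gave -0.19 ± 0.00 and -0.01 ± 0.14, and HSPA1A probe A_24_P682285 gave -0.13 ± 0.23. The HSPA5 probes gave -0.27 ± 0.33 and 0.48 ± 0.36. With all probes of a gene averaged, HSPA8 was at 0.03 and HSPD1 at 0.17. Over the 22 probes 11 were above 0 and 11 below, where 53.1% of all kept probes were above, and their median was 0.03, beside 0.02 over all kept probes. With the probe of highest signal per gene the median was -0.05 ± 0.02, with 2 genes above 0 and 8 below, and it was 0.06 when all probes of a gene were averaged.

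**Figure D3:**
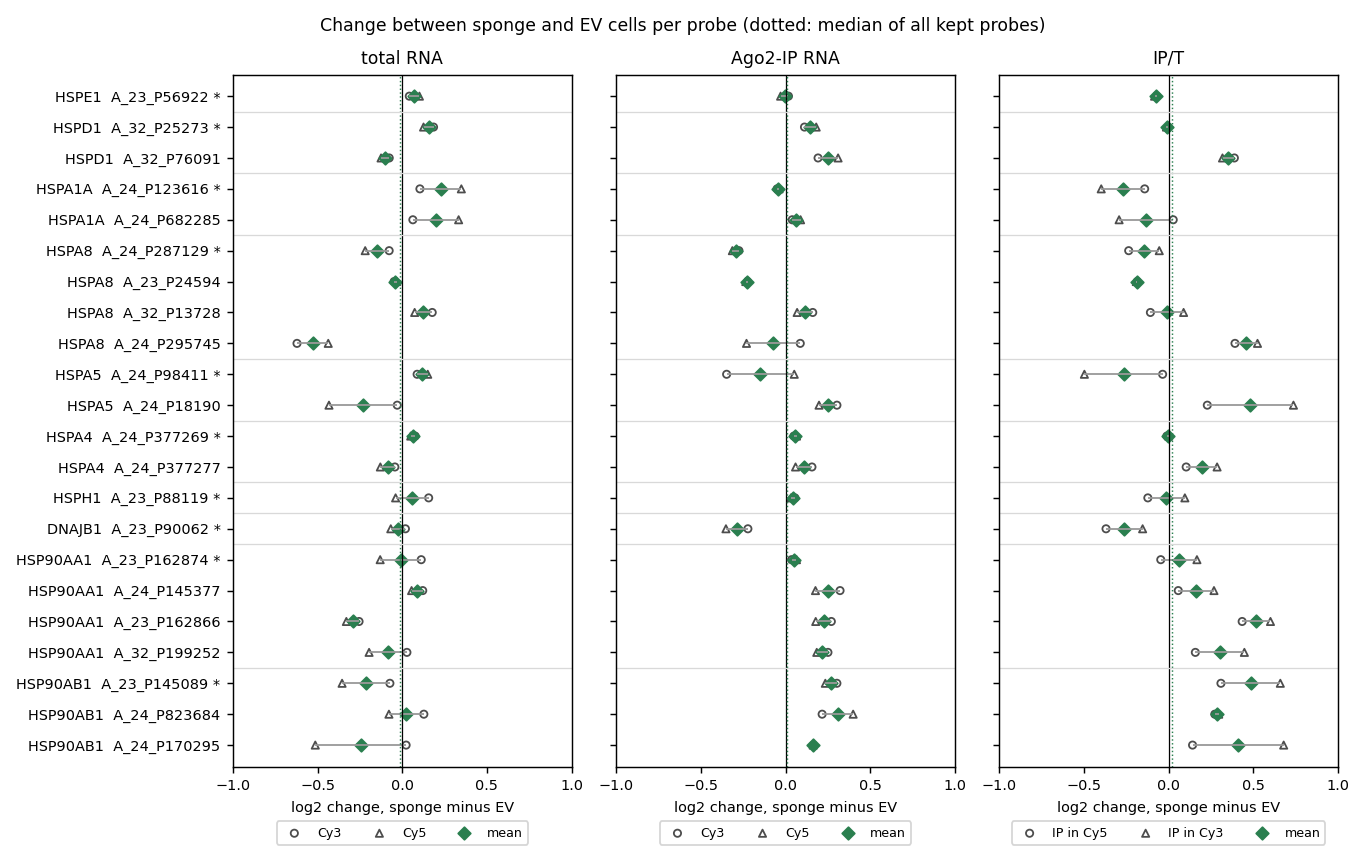
Log2 change between sponge and EV cells in total RNA (left), Ago2-IP RNA (middle) and IP/T (right) for the 22 kept chaperone probes; open symbols are the dyes or orientations, green diamonds their mean, and dotted lines the medians of all kept probes. No diamond reaches a 2-fold change (1 on this scale), the 7 HSP90 diamonds lie to the right of 0 in the middle and right panels (A_23_P162874 not with normexp, loess and Aquantile), and the HSPA8 probe A_24_P295745 lies at -0.53 in the left panel.

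Promoter windows of the genes are shown because heat shock elements are the best known feature in the control of these genes. The array values did not use the windows. The genes were chosen as heat shock proteins and chaperones, many of them known for this element, so a high share among them is no independent result. The windows (RefSeq, GRCh38.p14, 250 bases before to 50 after each start) were searched for a pair of inverted GAA repeats, written GAANNTTC or TTCNNGAA, each of which reads the same on both strands. A pair was found in 6 of the 10 genes (HSPA1A, HSPA8, HSP90AA1, HSP90AB1, DNAJB1 and HSPD1), against 16.2% of 27305 genes with a window. Over windows, which genes hold in unequal numbers, it was 7 of 16, against 13.5% of 35116. The windows of HSPA4, HSPA5, HSPH1 and HSPE1 held none. Capitals mark the matches, which overlap where the stretch is longer than 8 bases.
HSPA1A, chr6:31815293-31815592, plus strand: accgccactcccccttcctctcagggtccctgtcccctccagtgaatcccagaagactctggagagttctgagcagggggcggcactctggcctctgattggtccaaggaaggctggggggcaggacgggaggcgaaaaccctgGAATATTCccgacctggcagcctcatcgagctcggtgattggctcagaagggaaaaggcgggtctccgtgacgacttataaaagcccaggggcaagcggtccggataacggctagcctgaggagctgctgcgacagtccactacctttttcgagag
HSPA8, chr11:123062087-123062386, minus strand: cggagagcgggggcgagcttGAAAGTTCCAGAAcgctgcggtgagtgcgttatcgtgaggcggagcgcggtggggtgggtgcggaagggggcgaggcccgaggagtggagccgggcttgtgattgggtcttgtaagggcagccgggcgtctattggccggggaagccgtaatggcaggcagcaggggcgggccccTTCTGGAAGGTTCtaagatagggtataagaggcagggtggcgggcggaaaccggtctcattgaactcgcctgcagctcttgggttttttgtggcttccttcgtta
HSP90AA1, chr14:102086995-102087294, minus strand: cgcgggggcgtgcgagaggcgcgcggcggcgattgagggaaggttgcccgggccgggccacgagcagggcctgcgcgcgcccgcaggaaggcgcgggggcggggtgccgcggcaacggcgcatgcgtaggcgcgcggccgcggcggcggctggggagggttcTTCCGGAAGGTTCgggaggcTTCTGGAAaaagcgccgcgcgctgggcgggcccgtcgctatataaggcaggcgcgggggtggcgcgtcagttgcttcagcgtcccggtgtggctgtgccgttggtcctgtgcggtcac
HSP90AB1, chr6:44247693-44247992, plus strand: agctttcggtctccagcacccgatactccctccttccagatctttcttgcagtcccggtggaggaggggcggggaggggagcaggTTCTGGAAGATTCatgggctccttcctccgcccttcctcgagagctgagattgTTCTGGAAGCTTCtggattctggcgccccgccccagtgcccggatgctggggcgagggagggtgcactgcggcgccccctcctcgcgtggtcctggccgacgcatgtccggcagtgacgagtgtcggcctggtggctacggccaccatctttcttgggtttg
HSPD1, chr2:197499791-197500090, minus strand: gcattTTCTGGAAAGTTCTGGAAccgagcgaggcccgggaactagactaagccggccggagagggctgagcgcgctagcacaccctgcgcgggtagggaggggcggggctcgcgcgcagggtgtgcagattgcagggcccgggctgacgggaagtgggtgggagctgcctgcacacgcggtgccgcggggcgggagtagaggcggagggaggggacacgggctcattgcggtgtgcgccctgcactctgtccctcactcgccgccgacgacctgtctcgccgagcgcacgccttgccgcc

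HSPD1 and HSPE1 are neighbours on chromosome 2 and are transcribed away from each other, with 104 bases between the genes. HSPE1 had no match in its own window, which is printed next to that of HSPD1 for this reason. The HSPD1 matches lie near chr2:197500090, at the end of their window that faces HSPE1, and the HSPE1 window begins at 197500129. The matches are inside the HSPD1 gene, which reaches to 197500274, and not in the 104 bases between the genes. Whether they act on either gene was not tested. Another HSPD1 window, chr2:197500225-197500524, overlaps that of HSPE1 and held no match.
HSPE1, chr2:197500129-197500428, plus strand: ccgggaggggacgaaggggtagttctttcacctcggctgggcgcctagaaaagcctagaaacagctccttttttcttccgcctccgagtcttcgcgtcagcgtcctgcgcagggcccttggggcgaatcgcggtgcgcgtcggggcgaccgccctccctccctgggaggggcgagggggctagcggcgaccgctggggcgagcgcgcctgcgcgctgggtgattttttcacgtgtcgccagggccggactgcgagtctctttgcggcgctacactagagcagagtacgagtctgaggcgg

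HSPA5 is known for another element, that of the response to unfolded proteins in the endoplasmic reticulum. The sequence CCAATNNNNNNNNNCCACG, searched on both strands, was found in 1 of the 10 genes, HSPA5, and in 25 of 27305 genes (0.0916%). The search was made because HSPA5 is known for the element, so its match is no independent result. The match is in capitals here.
HSPA5, chr9:125241294-125241593, minus strand: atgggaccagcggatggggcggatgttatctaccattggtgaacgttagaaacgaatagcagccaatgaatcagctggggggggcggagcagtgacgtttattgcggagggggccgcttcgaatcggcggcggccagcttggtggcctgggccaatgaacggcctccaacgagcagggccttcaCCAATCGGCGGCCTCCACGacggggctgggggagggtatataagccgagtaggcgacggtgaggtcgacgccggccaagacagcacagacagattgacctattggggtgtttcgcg

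The array values in EV cells are set beside the GAA pair here, on the probes of highest signal. Of the genes with the pair, HSPA1A and HSPA8 had IP/T ratios above 2-fold. DNAJB1 and HSPD1 lay just under 2-fold, and HSP90AA1 and HSP90AB1 below 1. Of those with none in their windows, HSPE1 had the highest ratio, HSPA4 lay near 1 and HSPH1 below 1. No direction is given for HSPA5. Whether the pair bears on IP/T was not tested. A match is a string of letters and no measure of factor binding.

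The partners of these chaperones were taken from lists of 118 further genes in 11 role groups, of which 98 had a kept probe. In EV cells 15 of the 98 were 2-fold or more enriched in IP, against 17.5% of all kept probes, and 20 were 2-fold or more lower, against 19.0%. Both counts lay near these shares, which also stand beside the counts per role group given next. The median log2 IP/T of the partners was -0.16 ± 0.18, beside -0.16 over all kept probes. In sponge cells 12 of the partners were enriched, against 17.5%, and 14 were lower, against 17.8%, with a median of -0.08 ± 0.11.

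The remaining HSP70 and HSP110 genes had a median of -0.18 ± 0.20 over 7 kept genes. HSPA13, an HSP70 of the endoplasmic reticulum, was highest at 1.44 ± 0.18, and HYOU1, an HSP110 of the same compartment, lowest at -0.92 ± 0.35. In the HSP90 family HSP90B1 of the endoplasmic reticulum gave -0.04 ± 0.36 and TRAP1 of mitochondria gave -0.22 ± 0.25. The J-domain proteins spread widest, with 5 of 26 enriched and 4 lower: DNAJB9, a BiP co-chaperone, reached 4.48 ± 0.01 with EV and 4.48 ± 0.03 with the sponge, and DNAJC1 lay at -1.40 ± 0.17.

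The nucleotide exchange factors and HSP70 regulators had 5 of 10 genes above 0 and 5 below, with 3 enriched and 4 lower, from BAG3, which couples HSP70 to autophagy, at 1.59 ± 0.08 to the ubiquitin ligase STUB1 (CHIP) at -1.74 ± 0.13. Of 12 HSP90 co-chaperones 9 were below 0 and 3 above, where 44.2% of all kept probes were above, with a median of -0.59 ± 0.11, from CHORDC1 at 1.16 ± 0.12 to UNC45A, a myosin chaperone, at -1.20 ± 0.02. The small heat shock proteins had 3 kept genes, with HSPB1 (HSP27) at 0.81 ± 0.12 and CRYAB, the alpha-crystallin B chain, at -1.46 ± 0.50. Among the heat shock factors HSF1, which drives the stress response, was at -1.40 ± 0.18 and its binding protein HSBP1 at 2.60 ± 0.23.

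The other folding machines gave no 2-fold value in TRiC or prefoldin. TRiC, the ring chaperonin of the cytosol that folds actin and tubulin, had a median of -0.17 ± 0.21 over 9 genes, from TCP1 at 0.60 ± 0.59 to CCT7 at -0.90 ± 0.03. Prefoldin, which hands clients to TRiC, ran from PFDN2 at 0.93 ± 0.13 to PFDN5 at -0.86 ± 0.30. The folding factors of the endoplasmic reticulum had 4 of 13 enriched, from HERPUD1, a gene of the unfolded protein response, at 3.73 ± 0.09 to the disulfide isomerase P4HB at -1.57 ± 0.13. Mitochondrial quality control had the lowest median, -1.15 ± 0.08 over 6 genes, with 4 of them 2-fold or more lower. There CLPX lay at 0.43 ± 0.04 and its protease partner CLPP at -1.36 ± 0.23, whereas HSPE1 and HSPD1, which also act in mitochondria, were above 0.

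Between sponge and EV cells no partner gene differed by 2-fold in T, in IP or in IP/T. In T the lowest of 53 genes with the same sign in both dyes and all T channels detected were AHSA1 (-0.30 ± 0.03), which stimulates the ATPase of HSP90, TTC4 (-0.30 ± 0.03), another HSP90 partner, and TRAP1 (-0.25 ± 0.09). The highest were the mitochondrial disaggregase CLPB (0.43 ± 0.02), the mitochondrial protease LONP1 (0.26 ± 0.06) and HSPB1 (0.25 ± 0.03). In IP, over 70 such genes, the lowest were DNAJC16 (-0.42 ± 0.03), PFDN2 (-0.32 ± 0.06) and HSPA6 (-0.32 ± 0.39). The highest were LONP1 (0.40 ± 0.04), HYOU1 (0.37 ± 0.05) and PFDN6 (0.36 ± 0.26). All of these are differences between 2 RNA samples. In the change in IP/T, 55 of the 98 partners were above 0 and 43 below, where 53.1% of all kept probes were above. All 9 TRiC genes, 9 of 12 HSP90 co-chaperones, 5 of 6 prefoldin genes and 6 of 7 HSP70 and HSP110 genes were above 0. So were 13 of 26 J-domain proteins, 6 of 10 HSP70 regulators and 1 of 2 HSP90 family genes. Above 0 were also 4 of 13 folding factors of the endoplasmic reticulum and 2 of 6 mitochondrial genes. All 3 small heat shock proteins and all 4 heat shock factors were below. Several values were within their SD, such as CCT5 (0.13 ± 0.20), CCT6B (0.01 ± 0.04), CRYAB (-0.03 ± 0.36), HSF1 (-0.11 ± 0.16) and HSF2 (-0.03 ± 0.15).

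**Figure D4:**
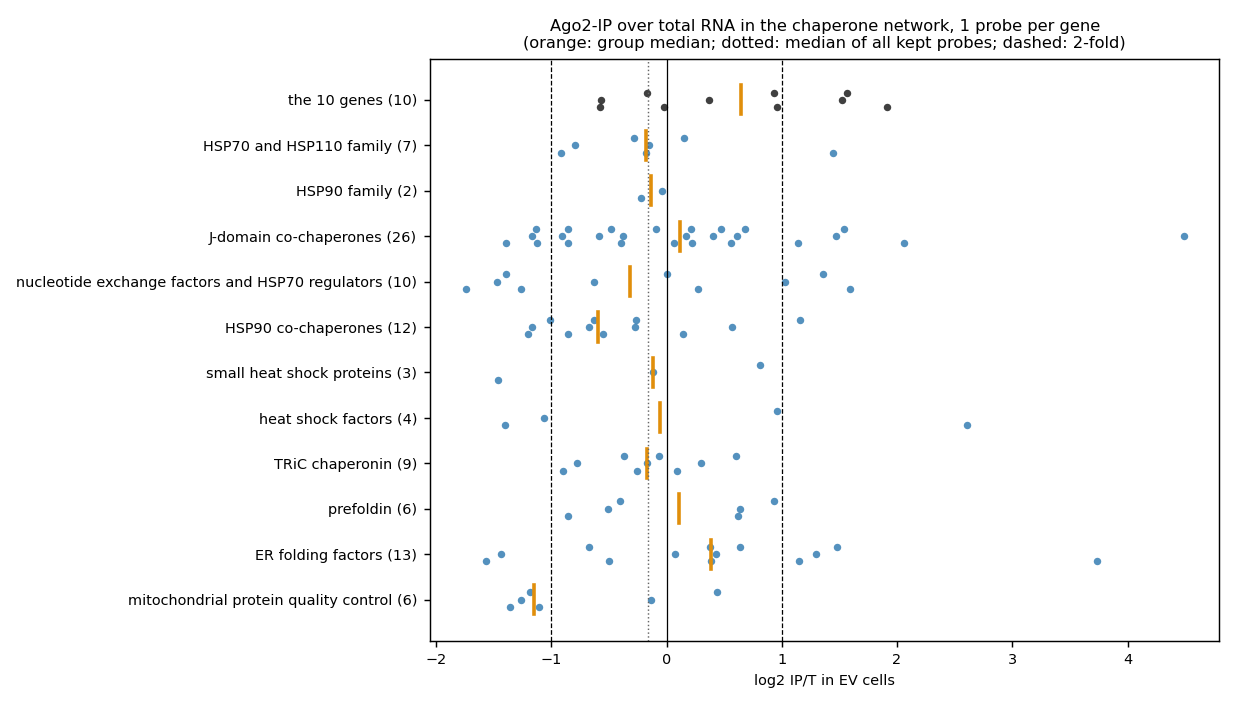
Log2 IP/T in EV cells for the 10 genes (black) and for the 98 kept partner genes by role group (blue, 1 probe per gene, number of kept genes in parentheses); orange bars are group medians, the dotted line is the median of all kept probes, -0.16, and dashed lines mark 2-fold. The 10 genes have a median of 0.65 with the probe of highest signal (0.19 over their 22 probes), and mitochondrial protein quality control has the lowest, -1.15.

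**Figure D5:**
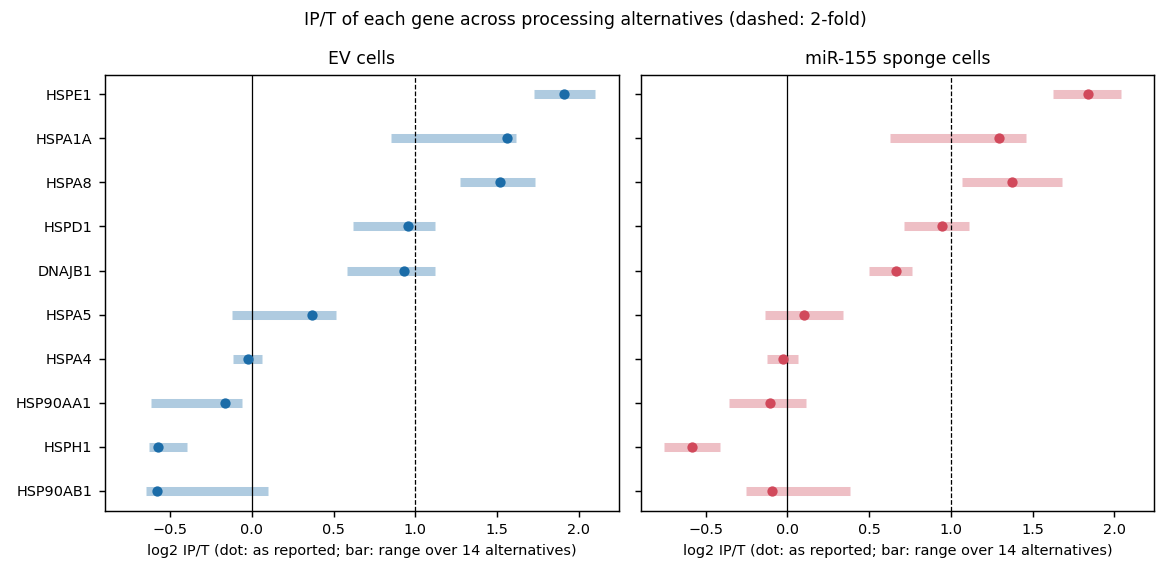
Log2 IP/T of each gene in EV cells (left) and sponge cells (right); dots are the reported values, bars the lowest to highest value over 14 processing alternatives, and the dashed line marks 2-fold. The bars of HSPE1 and HSPA8 stay above the dashed line in both populations, the bar of HSPA1A crosses it, and those of HSPA5, HSPA4 and HSP90AB1 cross 0 in both populations.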

How the data were processed

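Total RNA and Ago2-IP RNA of EV and miR-155 sponge L1236 cells were measured on 4 two-colour arrays. The deposited scanner files hold a processed intensity per spot and channel, with background subtracted and dyes corrected. They came from Agilent Feature Extraction 10.7.3.1 per the file headers, and the submitters' processing notes name 10.5.1.1. The 8 deposited scanner files are 4 arrays, each given under both labelled samples, and the channel of the sample's own dye was taken. The authors' series table holds normalised log2 values for 22282 probes, of which 22268 were also kept here, and was used as an alternative. Flags of the files were used as deposited. The authors' log ratio and p-value columns of the single arrays were not used.

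Control spots and outlier spots were left out, spots of a probe were averaged and log2 processed signals were quantile normalised over 8 channels. Of 41000 probes, 60 lacked a value, 25830 were well above background in at least 4 channels, and 3358 of these differed by more than 2-fold between Cy3 and Cy5 of an RNA, which left 22472. Cy3 and Cy5 were averaged. Probes were named through RefSeq accessions, which gave 15628 kept probes of 11204 genes a symbol. A gene was represented by its kept probe of highest mean signal. The 10 genes are all named, and of each role group the partner of highest and of lowest IP/T in EV cells, and the 3 highest and 3 lowest changes in T and in IP with the same sign in both dyes and all channels of the fraction detected. Members and lists were chosen with earlier results of these data known, and no list is independent evidence.

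Alternatives were normexp (offset 50) with loess and Aquantile or with quantile normalisation, scaling to the 75th percentile, the authors' values, other detection and dye filters, 1 dye or orientation only, and other probe choices. Both normexp settings also differ from the main processing in using median signals, since no mean signal column was given, in place of processed signals. The other HSPA5 probe was added as an alternative after seeing the data. Python 3.11.15, pandas 2.3.3, R 4.3.3 and limma 3.58.1 were used, and the steps were tested on simulated data. One marker gene is not reported here. The number of arrays limits the precision.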

Additional observations from a re-analysis of the deposited data

How the results depend on the processing

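Several medians over the 10 genes moved with the processing. Of 700 values per gene under an alternative, 255 were identical to the reported value, among them all those with another detection or dye filter, 371 differed by less than the SD and 74 by more. With 1 orientation left, no value could move by more than the SD, which is taken over the same labellings. This also held for the changes in T and in IP with 1 dye left. Such values count among the 371 by construction and say nothing about stability. No 2-fold value turned its sign. The median log2 IP/T in EV cells (0.65) was 0.52 with normexp, loess and Aquantile, 0.41 with normexp and quantile normalisation, 0.29 with the mean over all kept probes of a gene and 0.45 with the other HSPA5 probe, a choice added after seeing the data, and from 0.54 to 0.73 with 1 dye or orientation left. The median in sponge cells (0.38) was 0.26 with normexp and quantile normalisation and 0.33 with normexp, loess and Aquantile, and from 0.34 to 0.55 with 1 dye or orientation left. The median change in T (0.06) was -0.0188 with the mean over all kept probes, and 0.00461 to 0.0814 with 1 dye or orientation left. The median change in IP (0.02) was -0.0175 with normexp, loess and Aquantile, 0.0075 with scaling to the 75th percentile, 0.0478 with the mean over all kept probes and 0.0473 with the other HSPA5 probe, and 0.0268 to 0.0421 with 1 dye or orientation left. The median change in IP/T (-0.05) was -0.0872 with normexp, loess and Aquantile, -0.00633 with normexp and quantile normalisation, -0.0896 with scaling to the 75th percentile, 0.0618 with the mean over all kept probes and -0.0107 with the other HSPA5 probe, and from -0.0875 to -0.0342 with 1 dye or orientation left. The cause was not tested. The remaining alternatives (detection in all 8 channels or in at least 1, no dye filter or one at 1.5-fold, the authors' normalised values, the probe of highest IP/T, which changed the probe of HSPA8 and HSP90AB1) moved no median by more than its SD. The median IP/T of all kept probes in EV cells (-0.16) was -0.04 with normexp and quantile normalisation and 0.01 with normexp, loess and Aquantile.

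No paired analysis was possible because each group holds 1 RNA sample and its Cy3 and Cy5 labellings are technical. A difference below the SD over dyes cannot be told apart from labelling. One above this SD cannot be told apart from variation between cultures, which was not measured.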
